A study of Mus musculus with 12 samples.

Results

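Mouse eggs depleted of both Dcp1a and Dcp2 were compared with eggs depleted of Dcp1a alone, so that Dcp2 siRNA was the only addition. The comparison used 6 of the 12 arrays of the study, 3 labelled Dcp1a+Dcp2 siRNA (called the double knockdown here) and 3 labelled Dcp1a siRNA. All 6 arrays therefore carried Dcp1a siRNA. Eggs came from CF1 mice. Full-grown oocytes arrested at the germinal vesicle stage were injected with siRNA pools against 1 or both genes, held in CZB medium with milrinone for 20 h, then matured in vitro to metaphase II (MII) for 18 h without milrinone. Each array held RNA of 30 pooled MII eggs, and the labels number the samples of each group 1 to 3. Nothing in the labels ties a number to a mouse or a day, so p-values measure the spread between these samples. The other 6 arrays, 3 with control siRNA and 3 with Dcp2 siRNA, gave the effect of the same Dcp2 siRNA on eggs with normal Dcp1a. As a model, these are siRNA knockdowns in pooled eggs, and the amount of each siRNA in the mixture is not given in the labels.

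Decapping removes the 5′ cap of an mRNA and opens it to 5′-to-3′ degradation. DCP2 is the enzyme that cuts the cap and DCP1A is its activating partner, while DDX6, EDC and PAT proteins assist and the exonuclease XRN1 follows. Full-grown oocytes transcribe little, store maternal mRNAs in a stable form, and degrade a large part of them during maturation, so mRNA levels in MII eggs mostly reflect stability and not synthesis. Dcp1a and Dcp2 are themselves dormant maternal messages that are translated as maturation proceeds.

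The siRNA targets behaved as labelled. The Dcp2 probe set read 32.4, 49.2 and 57.1 on the Dcp1a siRNA arrays and 5.0, 4.9 and 4.9 on the double knockdown arrays, in linear intensity units as deposited. The groups did not overlap, and the double knockdown arrays lay at the lowest value of the table, 4.9. The fitted log2 change was -3.19 ± 0.34 (SE, n = 3 per group; limma adjusted p = 0.000244). Values at or under 32 units (log2 of 5) are treated here as dim, and for a group with so dim a mean or median the fold is given as a bound that replaces dim values by 32: Dcp2 was at least 1.41-fold lower. With every value under 32 set to 32 the call was lost (log2 change -0.49, limma adjusted p = 0.330), since the message was dim even where it was not targeted.

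Dcp1a was targeted in both groups. Its brightest probe set read 1208, 589 and 1236 with Dcp1a siRNA and 518, 1233 and 622 in the double knockdown, against 5385 to 12427 on the control arrays. The groups overlapped. The log2 difference of -0.38 ± 0.42 (SE, n = 3 per group) had a 95% interval from -1.30 to 0.54, which spans 0.406-fold to 1.45-fold (limma adjusted p = 0.554). A pair of other Dcp1a probe sets differed by 0.04 and -0.28 and were not called. Over all tested probe sets each control array correlated better on average with the Dcp1a siRNA group (0.982, 0.966 and 0.963) than with the other controls (0.946, 0.961 and 0.953). Dcp2 replicate 2 did so too, at 0.982 against 0.951 with its own group. The Dcp1a intensities of control replicate 1 and Dcp2 replicate 2, 12427 and 10248, matched their labels. These arrays are not among the 6 compared, but they enter the common estimate of spread: without control replicate 1 and Dcp2 replicate 2, 1281 probe sets were called higher and 1391 lower, beside the 959 and 439 of all 12 arrays.

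Adding Dcp2 siRNA to Dcp1a siRNA changed many transcripts in both directions. A total of 959 probe sets were higher (8.27% of the 11593 tested) and 439 were lower (3.79%) at a limma adjusted p under 0.05. Before adjustment 1552 were higher and 2129 lower at p under 0.05. The called rises came from 721 genes and had a median fitted fold of 2.97, and the called falls came from 386 genes with a median of 2.18. With 32 as the lowest value, 703 rises but 240 falls exceeded 2-fold, and 222 rises but 14 falls exceeded 4-fold. Intensities are relative to the other transcripts of an array, and the total mRNA per egg was not measured. The median of all tested probe sets lay at -0.11, and at -0.03, -0.06 and 0.00 after median centring, quantile normalization and cyclic loess.

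**Figure D1:**
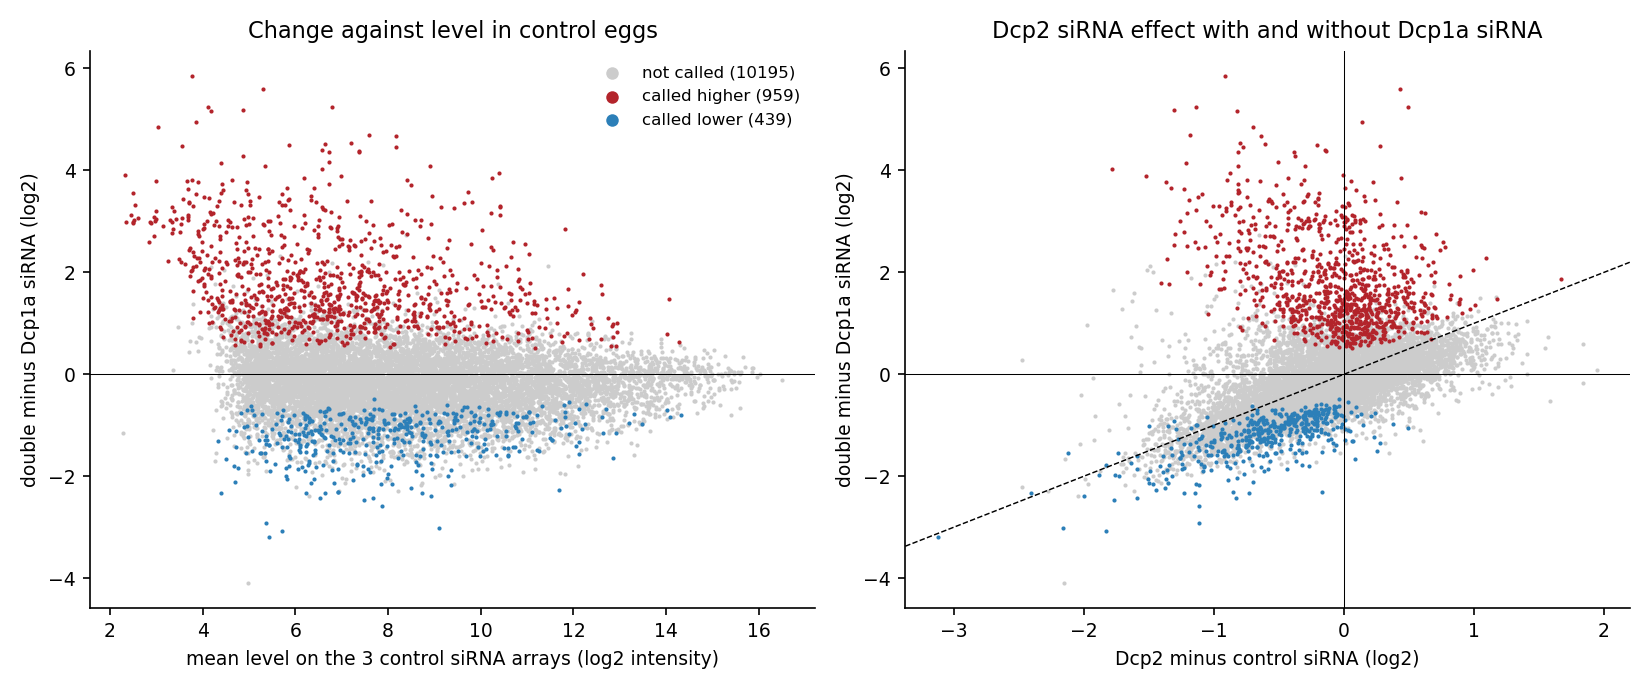
The left panel plots the log2 change in the double knockdown against Dcp1a siRNA over the mean log2 intensity on the 3 control arrays, for the 11593 tested probe sets; red marks 959 called higher and blue 439 called lower. The right panel plots the same change over the effect of Dcp2 siRNA against control siRNA, with a dashed line where both are equal: the blue points lie mostly left of 0, while the red points lie on both sides of it.

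The 12 genes with the largest rises were ranked with values under 32 set to 32, among called probe sets whose groups did not overlap. Non-overlap was thus a condition of choice, and 48.6% of all tested probe sets showed it in either direction. The 12 included 3 genes of cytosolic ribosomal proteins. Rpl10a, a protein of the large ribosomal subunit, read 106, 165 and 101 with Dcp1a siRNA and 3436, 3778 and 2250.3 in the double knockdown. This was a 25.4-fold rise (log2 4.67 ± 0.58, SE, limma adjusted p = 0.000574). Rpl19, another protein of the large subunit, read 57.2, 60.4 and 56.7 against 1154, 1302 and 758, an 18.0-fold rise (log2 4.17 ± 0.50; limma adjusted p = 0.000446). Rps4x, of the small subunit, read 66.7, 70.8 and 72.1 against 1048, 941 and 1124, a 14.8-fold rise (log2 3.89 ± 0.69; limma adjusted p = 0.00441). The Dcp1a siRNA arrays lay close together for Rpl19 and Rps4x and less so for Rpl10a.

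Eif4h, a translation initiation factor that stimulates the helicase eIF4A, had the largest rise of all named genes when values under 32 were set to 32, 37.8-fold, from 52.2, 84.8 and 33.3 to 1994, 1678 and 2378 (log2 5.24 ± 0.86; limma adjusted p = 0.00283). Both of its other tested probe sets rose too, by 5.59 and 3.31 on the log2 scale. Fcf1, a nucleolar protein needed to process 18S ribosomal RNA, read 37.7, 35.9 and 36.1 against 548, 851 and 512, a 17.0-fold rise (log2 4.09 ± 0.28; limma adjusted p = 1.08e-05). It had the smallest standard error among the 12 genes with the largest rises.

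Mdh2, the mitochondrial malate dehydrogenase of the citric acid cycle, rose 20.6-fold, from 97.5, 89.3 and 67.2 to 1596, 1744 and 1839 (log2 4.36 ± 0.75; limma adjusted p = 0.00347). Its other probe set rose by 3.32 on the log2 scale. Supt20, a subunit of the SAGA histone acetyltransferase complex, rose 22.9-fold, from 39.4, 51.4 and 40.0 to 1011, 1051 and 911. Elp2, a subunit of the Elongator complex that modifies tRNA, rose 16.9-fold, from 309, 208 and 255 to 4081, 4834 and 4029.9. For Elp2, 1 control array read 3174, close to the double knockdown, while the other control arrays read 169 and 202.

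The rest of the largest rises covered different roles. Atp6v1d, a subunit of the proton pump of lysosomes, was at least 15.2-fold higher, since the mean of its Dcp1a siRNA arrays was dim (33.8, 25.8 and 33.9 against 492, 560.4 and 467). Tuba4a, an α-tubulin, rose 14.4-fold from 538, 509 and 444 to 7286, 8209.9 and 6117. Lmna, which codes for the nuclear lamins A and C, rose 14.4-fold on its called probe set, from 66.8, 52.6 and 36.8 to 888, 920.2 and 469.9. Another Lmna probe set rose by 0.79 on the log2 scale, and the remaining ones differed by 0.39 and 0.12 and were not called. Lrrfip2 rose 14.1-fold, from 183, 178 and 163 to 2634, 2201 and 2545.

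Control replicate 3 stood apart for the genes that rose. Relative to the mean of the Dcp1a siRNA arrays, the 959 called rises averaged 1.81, 1.97 and 1.72 log2 units on the double knockdown arrays. On the control arrays they averaged 0.12, 0.04 and 0.79, and on the Dcp2 siRNA arrays 0.36, 0.08 and 0.27. Replicate 3 was the highest of the control arrays for 69.0% of these probe sets, against 38.1% of all tested probe sets. Its part in the result was not tested; without this array the number of called rises was 1023 and the number of called falls 451.

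**Figure D2:**
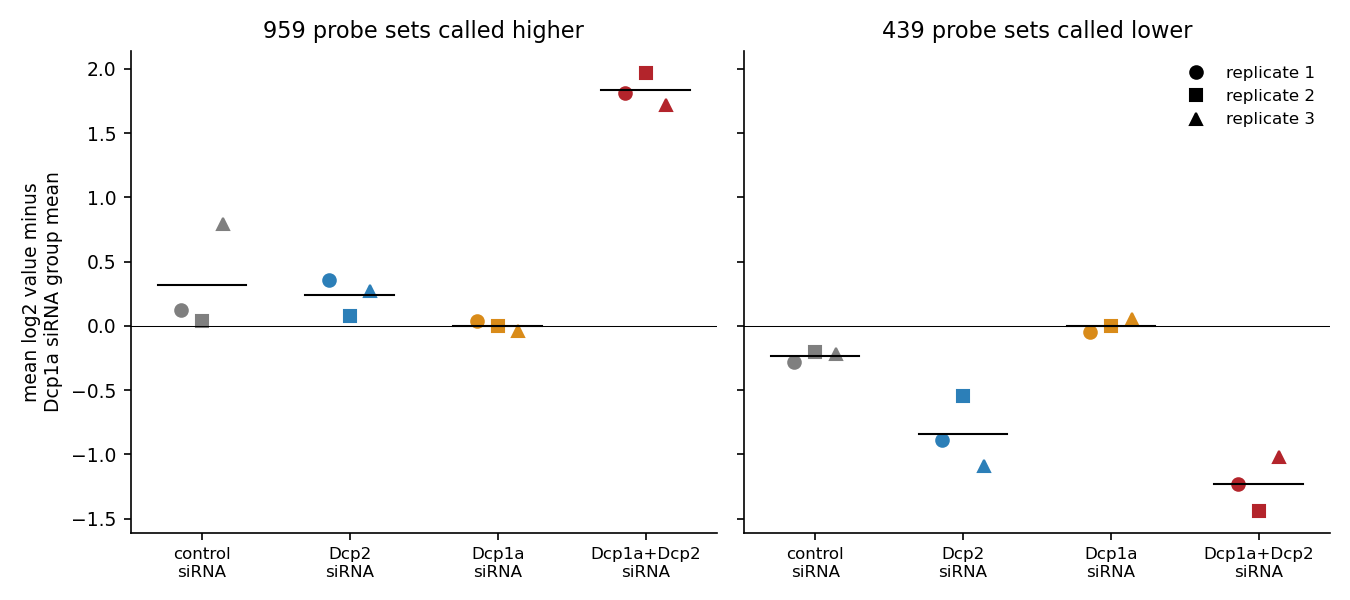
Each point is 1 array, placed by the mean log2 value of the called probe sets minus the mean of the Dcp1a siRNA group; marker shapes give the replicate number and lines the group means. For the 959 rises (left) the double knockdown arrays lie at 1.72 to 1.97 and all other arrays at 0.79 or lower, and for the 439 falls (right) the Dcp2 siRNA arrays lie between the control and the double knockdown arrays in mean.

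Cytosolic ribosomal protein genes, whose products form both ribosomal subunits, had the largest share of rises among the 30 lists. Of 39 tested genes, each taken by its brightest probe set, 22 rose (56.4%), 0 fell and 17 did not pass the test. Over all 6998 genes taken in this way the shares were 8.19% higher and 3.32% lower. The list's median log2 change was 1.38, or 1.00 with values under 32 set to 32, and the median of all genes was -0.09. On the mean of the list, the double knockdown arrays lay 1.58, 1.62 and 1.38 log2 units above the Dcp1a siRNA mean. The control arrays lay at -0.05, -0.05 and 0.66, and the Dcp2 siRNA arrays at 0.26, -0.07 and -0.07. The list was drawn up with earlier results of these data known, so its direction is not independent evidence. A probe set was tested if its log2 was above 5 on at least 3 of the 12 arrays, so the double knockdown arrays alone could bring one in. Of the rises 205 of 959 passed this filter only with those arrays, and of the falls 0 of 439. Such probe sets could hardly be called lower, and the share over all genes holds them too. In this list Rps19 and Rpl7 were among them.

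Ribosomal protein genes have many near-identical processed copies in the genome, and most of their probe sets on this array can match more than 1 transcript. On Affymetrix arrays the endings _a, _s and _x mark probe sets shared by transcripts of a gene, by several genes, or with partly unspecific probes, and a plain _at ending marks the rest. Of the 39 genes, 32 were represented by such shared probe sets, as were 18 of the 22 that rose. With plain probe sets only, 5 of 10 ribosomal protein genes rose and 0 fell, with a median log2 change of 1.26. Among the 5560 genes with a plain probe set, 5.85% rose and 3.96% fell, with a median of -0.17. Which of several copies gave the signal cannot be told apart for shared probe sets.

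Messages of ribosomal proteins classically begin with a C followed by an uninterrupted run of pyrimidines, the 5′ terminal oligopyrimidine tract that places their translation under common control. Start sequences are shown here because this tract is a feature the comparison did not use. They are taken from the RefSeq promoter table of GRCm38.p6, 10 bases before to 20 bases from the annotated start of the gene, on the gene's strand. Capitals mark a tract of C followed by at least 4 bases that are C or T. The first 3 genes hold the tract at the annotated start and rose, at chr11:114668570-114668599 (+), chr17:27635225-27635254 (-) and chr17:33955646-33955675 (-):
Rpl38: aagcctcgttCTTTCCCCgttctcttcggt
Rps10: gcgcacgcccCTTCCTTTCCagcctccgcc
Rps18: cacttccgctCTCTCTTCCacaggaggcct
The next 3 hold it and were not called by their brightest probe set, at chr19:6057937-6057966 (+), chr2:39005112-39005141 (-) and chr7:141447641-141447670 (+):
Fau: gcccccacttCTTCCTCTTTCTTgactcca
Rpl35: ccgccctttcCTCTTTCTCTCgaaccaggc
Rplp2: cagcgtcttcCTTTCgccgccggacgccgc
The last pair are genes of the list whose rises were among its 3 largest and whose annotated starts hold no tract, at chr17:28328555-28328584 (+) and chrX:102189372-102189401 (-):
Rpl10a: atttgagcgcatgcgcaaagcgctctgcct
Rps4x: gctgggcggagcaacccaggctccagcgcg

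Calls in this list fell on genes with and without the printed tract. Among the 6 genes with a tract at the start, Rpl38 rose by 2.54 on the log2 scale, Rps18 by 1.83 and Rps10 by 1.45. Fau differed by 0.64, Rpl35 by 0.96 and Rplp2 by -0.01 without passing the test, although another probe set of Rpl35 was called higher. A tract at the start was found in 6 of 33 ribosomal protein genes with a start sequence (18.2%) and in 3 of the 19 called higher (15.8%). It was found in 13 of 466 of all genes called higher (2.79%), 4 of 184 called lower (2.17%) and 180 of 5758 tested genes (3.13%), beside 2.51% of the 32851 windows of the table. The share of risers with a tract was thus near that of all tested genes. When the tract could begin up to 5 bases to either side, the shares were 42.4%, 36.8%, 23.8%, 23.9%, 23.5% and 18.3% in the same order. Annotated starts can lie a few bases from the true ones, and the absence of these letters says nothing about regulation of the gene.

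Genes of oxidative phosphorylation, the respiratory chain and ATP synthase of mitochondria, rose in 26 of 68 cases (38.2%, against 8.19% of all genes) and fell in 0. Their median log2 change was 0.65. The double knockdown arrays lay 1.05, 1.04 and 0.93 log2 units above the Dcp1a siRNA mean on the mean of the list, against -0.18, 0.02 and 0.52 for control and 0.21, -0.01 and -0.19 for Dcp2 siRNA. Ndufs7, a core subunit of complex I, read 59.6, 79.7 and 59.6 against 855, 1406 and 558, a 13.3-fold rise (log2 3.74 ± 0.58; limma adjusted p = 0.00205). Ndufb7, an accessory subunit of complex I, rose 12.7-fold, from 42.4, 38.5 and 44.2 to 523, 687 and 406. Ndufs8, another core subunit, was at least 8.24-fold higher, since it read 8.7, 8.4 and 8.4 with Dcp1a siRNA and 277, 390.1 and 169.7 in the double knockdown. All 3 of its tested probe sets rose. Ndufs8, Atp5g1, Atp5o and Sdhb were among the members of this list that passed the filter only with the double knockdown arrays. They could therefore hardly be called lower, and the share of rises in the list partly rests on such members.

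The machinery that builds mitochondrial proteins also had more rises than falls by the brightest probe sets. Among mitochondrial ribosomal protein genes 16 of 57 rose (28.1%, against 8.19% of all genes) and 0 fell, with a median log2 change of 0.34. Mrpl22 rose 8.15-fold, from 40.9, 33.2 and 30.5 to 306, 398 and 193. Mrpl41 was at least 6.57-fold higher, from 20.1, 22.7 and 20.3 to 194, 285 and 168, and Mrpl52 rose 5.72-fold. Among genes of mitochondrial protein import 6 of 23 rose (26.1%) and 0 fell, with a median of 0.50. They included Timm44, which anchors the import motor at the inner membrane, 5.07-fold higher, Timm17a, a channel subunit of the inner membrane, 4.6-fold higher, and Gfer, the sulfhydryl oxidase of the intermembrane space, 3.38-fold higher. With plain probe sets only, 10 of 40 genes of oxidative phosphorylation, 7 of 38 mitochondrial ribosomal protein genes and 1 of 10 import genes rose. No gene of these 3 lists was called lower by its brightest plain probe set, and their medians were 0.19, 0.06 and -0.13. Over all genes with a plain probe set 5.85% rose, with a median of -0.17. Of the 6 import genes that rose, 5 did so by a probe set ending in _a, _s or _x. Mrpl12, Mrpl41 and the import gene Timm50 were among the risers that passed the filter only with the double knockdown arrays and could hardly be called lower.

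**Figure D3:**
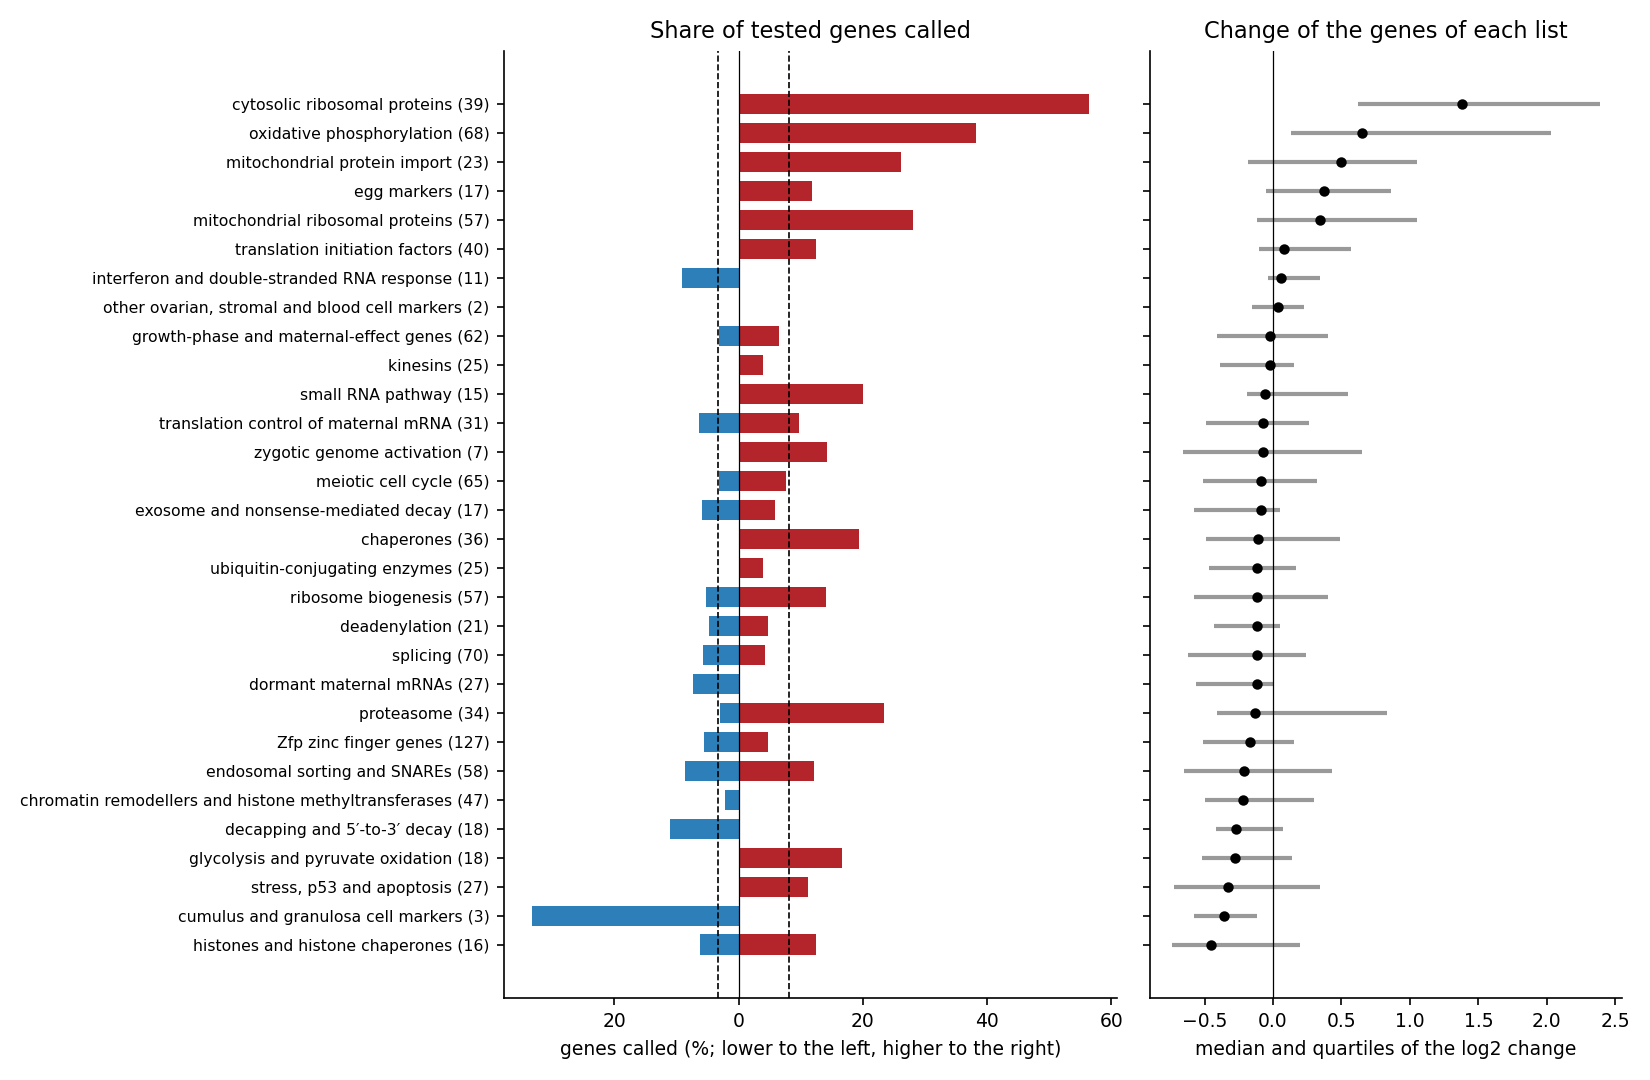
The left panel gives for each of 30 gene lists (number of tested genes in parentheses) the percent of genes called higher in red, to the right, and lower in blue, to the left; dashed lines mark the shares over all 6998 genes, 8.19% and 3.32%. The right panel gives the median log2 change (points) and quartiles (bars); cytosolic ribosomal proteins have the highest median, 1.38, and histones and histone chaperones the lowest, -0.45.

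Other protein synthesis and protein quality genes rose in part, with list medians near that of all genes. Of 40 translation initiation factor genes 5 rose (12.5%) and 0 fell by their brightest probe sets, with a median of 0.08, beside 8.19% and 3.32% of all genes. By other probe sets Eif3c and Eif3e were called higher, and Eif5 and Eif5b were called lower. Beside Eif4h the 5 that rose included Eif2b4, a subunit of the exchange factor for eIF2, 5.40-fold higher. Eif4e2, a cap-binding repressor of translation, was 4.23-fold higher, from 129, 133 and 132 to 527, 655 and 497. Of 57 ribosome biogenesis genes 8 rose and 3 fell, with a median of -0.12. The nucleolar helicase gene Ddx18 rose 7.30-fold, while Ncl, which codes for nucleolin, was 4.84-fold lower by its brightest probe set. Other probe sets of Ncl disagreed, with a called rise of 0.89 and an uncalled difference of 0.47 on the log2 scale.

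Of 34 proteasome genes 8 rose (23.5%) and 1 fell (2.94%), with a median of -0.13, beside 8.19% and 3.32% of all genes. The regulatory particle gene Psmd6 rose 3.77-fold, from 821, 765 and 639 to 2663, 3097 and 2606, and the core particle gene Psmb4 rose 3.21-fold. Psmc1, an ATPase of the regulatory particle, was 3.68-fold lower, from 662, 788 and 451 to 314, 138 and 109. Of 36 chaperone genes 7 rose (19.4%) and 0 fell, with a median of -0.11. The chaperonin subunit genes Cct2 and Cct5 rose 3.79-fold and 3.0-fold, and Hsph1, a cochaperone of HSP70, rose 3.77-fold with 1 double knockdown array at 886 and the others at 270.3 and 283. The other Hsph1 probe set differed by -0.43 on the log2 scale and was not called. The signs of the medians of the ribosome biogenesis, proteasome and chaperone lists turned under another scaling of the arrays, so no direction is given for these lists.

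Zp2 and Zp3, genes of the zona pellucida, were among the abundant egg messages that rose. Zp2, which codes for a protein of the egg coat, read 1641, 2033 and 1766 against 7547, 8336 and 6747, a 4.16-fold rise (log2 2.06 ± 0.42; limma adjusted p = 0.00945). Zp3, which codes for its partner in the coat, rose 3.28-fold, from 2492, 2379 and 2619.9 to 8035, 9076 and 7495. These were the only 2 called among 17 egg marker genes (11.8% higher and 0% lower, beside 8.19% and 3.32% of all genes). The median log2 change of the 17 was 0.37. The summed level of these markers ranged from 261234 to 290444 units on the Dcp1a siRNA arrays and from 279886 to 295749 on the double knockdown arrays.

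The list of oocyte growth and maternal-effect genes had 4 rises (6.45%) and 2 falls (3.23%) among 62, beside 8.19% and 3.32% of all genes. Zp2, Zp3 and Dppa5a, a pluripotency-associated gene of the egg, were those with the largest change, and Dppa5a rose 5.78-fold from 139, 149 and 165 to 789.5, 962 and 866. Among 27 dormant maternal mRNAs, stored untranslated in the oocyte, 0 rose and 2 fell: Dcp2 itself, the siRNA target, and Dazl. Dazl, a germ cell RNA-binding protein that activates translation of maternal mRNAs, read 4956, 5300.1 and 6311 against 2243, 1279 and 3998, 2.44-fold lower (log2 -1.28 ± 0.36; limma adjusted p = 0.0427). On Dazl the control arrays read 2757, 3256 and 2890.1, within the range of the double knockdown and below all Dcp1a siRNA arrays.

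Genes of mRNA decay itself were described by 3 lists. Of 18 genes of decapping and 5′-to-3′ decay 0 rose and 2 fell (11.1%, against 3.32% of all genes), namely Dcp2, which the siRNA targeted, and Ddx6, the helicase that activates decapping. Ddx6 read 868, 721 and 778 against 423, 436 and 394, 1.88-fold lower (limma adjusted p = 0.0302), while its other probe sets differed by 0.06 and -0.49 and were not called. Of 21 deadenylation genes Cnot2, a subunit of the CCR4-NOT deadenylase, rose 1.68-fold by a probe set ending in _x. Of its other probe sets, 1 ending in _x was called higher by 0.92 on the log2 scale, and the others differed by -0.89 and -0.15 and were not called. Tnrc6a, a scaffold that brings this deadenylase to microRNA targets, was 3.0-fold lower, from 511, 536 and 639.9 to 165, 139 and 284. A pair of further Tnrc6a probe sets was called lower as well, by -1.23 and -1.55 on the log2 scale, and the other 4 differed by -1.10, -0.80, -0.71 and 0.02 and were not called. Of 17 genes of the exosome and nonsense-mediated decay, Dis3l, a nuclease of the cytoplasmic exosome, rose 5.69-fold and Exosc3, a subunit of the exosome core, was 3.48-fold lower. In the deadenylation list 4.76% rose and 4.76% fell, and in the exosome list 5.88% and 5.88%, beside 8.19% and 3.32% of all genes.

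In translation control of maternal mRNA 3 of 31 genes rose (9.68%) and 2 fell (6.45%), beside 8.19% and 3.32% of all genes. Beside Dazl the largest changes were those of Fxr2, an RNA-binding relative of the fragile X protein, 2.30-fold higher, and Cpsf4, a subunit of the polyadenylation complex, 2.20-fold higher. In the small RNA pathway 3 of 15 genes rose (20.0%) and 0 fell by their brightest probe sets. By other probe sets Dicer1 was called higher, and Asz1 and Rnf17 were called lower. Gtsf1, which acts with PIWI proteins against transposons, rose 5.11-fold from 1335, 1111 and 1248 to 6259, 8143 and 4846, and its other probe set rose by 2.07 on the log2 scale. Drosha, the nuclease that begins microRNA processing, rose 3.26-fold, and Mael, a germ cell factor of the piRNA pathway, rose 2.08-fold.

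Of 65 meiotic cell cycle genes 5 rose (7.69%) and 2 fell (3.08%), near the shares of all genes. Anapc7 and Anapc2, subunits of the anaphase-promoting complex, rose 4.51-fold and 3.06-fold, and another probe set of Anapc7 was lower by -0.83 on the log2 scale. Ndc80, a kinetochore protein that binds spindle microtubules, read 1268, 1519 and 1844 against 456, 411 and 717, 2.98-fold lower (log2 -1.58 ± 0.28; limma adjusted p = 0.00476). Of 16 genes for histones and their chaperones 2 rose (12.5%) and 1 fell (6.25%): H2aj and H2ax rose 4.50-fold and 2.99-fold, and Hira, the chaperone of histone H3.3, was 1.75-fold lower. Of 70 splicing genes 3 rose (4.29%) and 4 fell (5.71%), against 8.19% and 3.32% of all genes. Among them Ppil3 was at least 12-fold higher, Eftud2, a GTPase of the U5 particle, rose 6.35-fold, and Hnrnph1, an RNA-binding splicing regulator, was 3.04-fold lower.

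Of 58 genes for endosomal sorting and SNARE proteins 7 rose (12.1%) and 5 fell (8.62%). Stx5a, a SNARE protein of the Golgi, rose 11.4-fold from 473, 308 and 401 to 3716, 6294 and 3662, and Vps35l and Snx17, which recycle endosomal cargo, rose 5.52-fold and 3.77-fold. Of 127 zinc finger genes of the Zfp series 6 rose (4.72%) and 7 fell (5.51%), beside 8.19% and 3.32% of all genes. The largest changes were those of Zfp593 and Zfp653, 3.14-fold and 2.79-fold higher, and Zfp760, 2.66-fold lower. Of 18 genes of glycolysis and pyruvate oxidation 3 rose (16.7%) and 0 fell. Aldoa, aldolase A, rose 2.57-fold and Pkm, pyruvate kinase, was at least 2.10-fold higher. Pdk1, a kinase that inhibits pyruvate dehydrogenase, rose 2.39-fold, from 1554, 1522 and 950 to 3057, 2805 and 3591. Its control arrays read 4303, 4047 and 4435, above all arrays of both groups. By the brightest probe set of each gene, Setd2, a histone H3 methyltransferase, was the only call among 47 chromatin genes, 2.10-fold lower. Kif17, a kinesin, was the only one among 25, 4.0-fold higher. Ube2a, a ubiquitin-conjugating enzyme, was the only one among 25, 3.68-fold higher. Other probe sets in these lists were called too. Among chromatin genes Smarca4 and Smarce1 were higher by them, and Brwd1, Kdm6a, Smarca5, Smarcc1 and Suz12 were lower. Kif2a was lower among kinesins and Ube2w higher among ubiquitin-conjugating enzymes.

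Genes of stress, p53 and apoptosis gave 3 rises (11.1%, against 8.19% of all genes) and 0 falls among 27. Ddit3, whose product acts in the unfolded protein response, rose 4.39-fold from 34.4, 43.2 and 26.1 to 156, 115 and 225. Hspa8, the constitutive HSP70 chaperone, rose 2.96-fold from 6801, 5539 and 4299 to 18203, 17846 and 12976, and Mcl1, an antiapoptotic BCL2 relative, rose 2.13-fold. The list's median was -0.33, and 9 of its 27 genes lay above 0. Among 11 genes of the interferon and double-stranded RNA response 0 rose and 1 fell, Tlr3, a receptor for double-stranded RNA, 2.14-fold lower. Among 7 genes of zygotic genome activation the single call was Arg2, an arginase, 9.73-fold higher from 47.8, 54.2 and 44.5 to 473, 397 and 566.

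Falls were smaller than rises. Edrf1 had the largest one, 8.04-fold, from 797, 483 and 687 to 85.0, 46.6 and 129 (log2 -3.01 ± 0.37; limma adjusted p = 0.000537). Its other probe sets disagreed, with a called rise of 0.82 and an uncalled difference of -1.51 on the log2 scale. Lamb1, a laminin chain of basement membranes, was 6.0-fold lower on 1 probe set, from 437, 579 and 350.3 to 116, 44.1 and 80.4, while its other probe sets differed by -0.31 and 0.02 and were not called. Rnf17, a Tudor domain protein of germ cells, was 5.29-fold lower, from 249.9, 218 and 194 to 45.1, 28.8 and 49.3, and its other probe sets differed by -0.54 and -0.08 and were not called. Kif2a, a kinesin that depolymerises microtubules, was 5.24-fold lower, from 399, 481 and 405 to 85.9, 59.0 and 106, and a second probe set of it was also called lower.

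Brwd1, a bromodomain protein required in oocytes, had the smallest standard error among the 12 largest falls. It read 363, 328 and 287 against 77.5, 68.3 and 75.1, 4.41-fold lower (log2 -2.14 ± 0.23; limma adjusted p = 0.000242), although its other 3 probe sets differed by -0.28 to -0.55 and were not called. Klhl28, a kelch repeat protein, was 5.01-fold lower and its second probe set was called lower as well. Gtf2f2, a subunit of the general transcription factor TFIIF, was 4.50-fold lower, from 596, 979.5 and 468 to 259, 132 and 87.4. Pcnx was 4.46-fold lower, but of its 3 other tested probe sets 1 had the opposite sign and 0 were called lower. Nap1l3, a nucleosome assembly protein relative, was 4.41-fold lower. Morc3, a nuclear matrix ATPase, was at least 5.0-fold lower, with 1 double knockdown array at 129.9 and the others at 30.5 and 27.2. Of its 2 other tested probe sets 1 had the opposite sign and 0 were called lower. Daam1, a formin that nucleates actin filaments, was at least 4.29-fold lower.

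**Figure D4:**
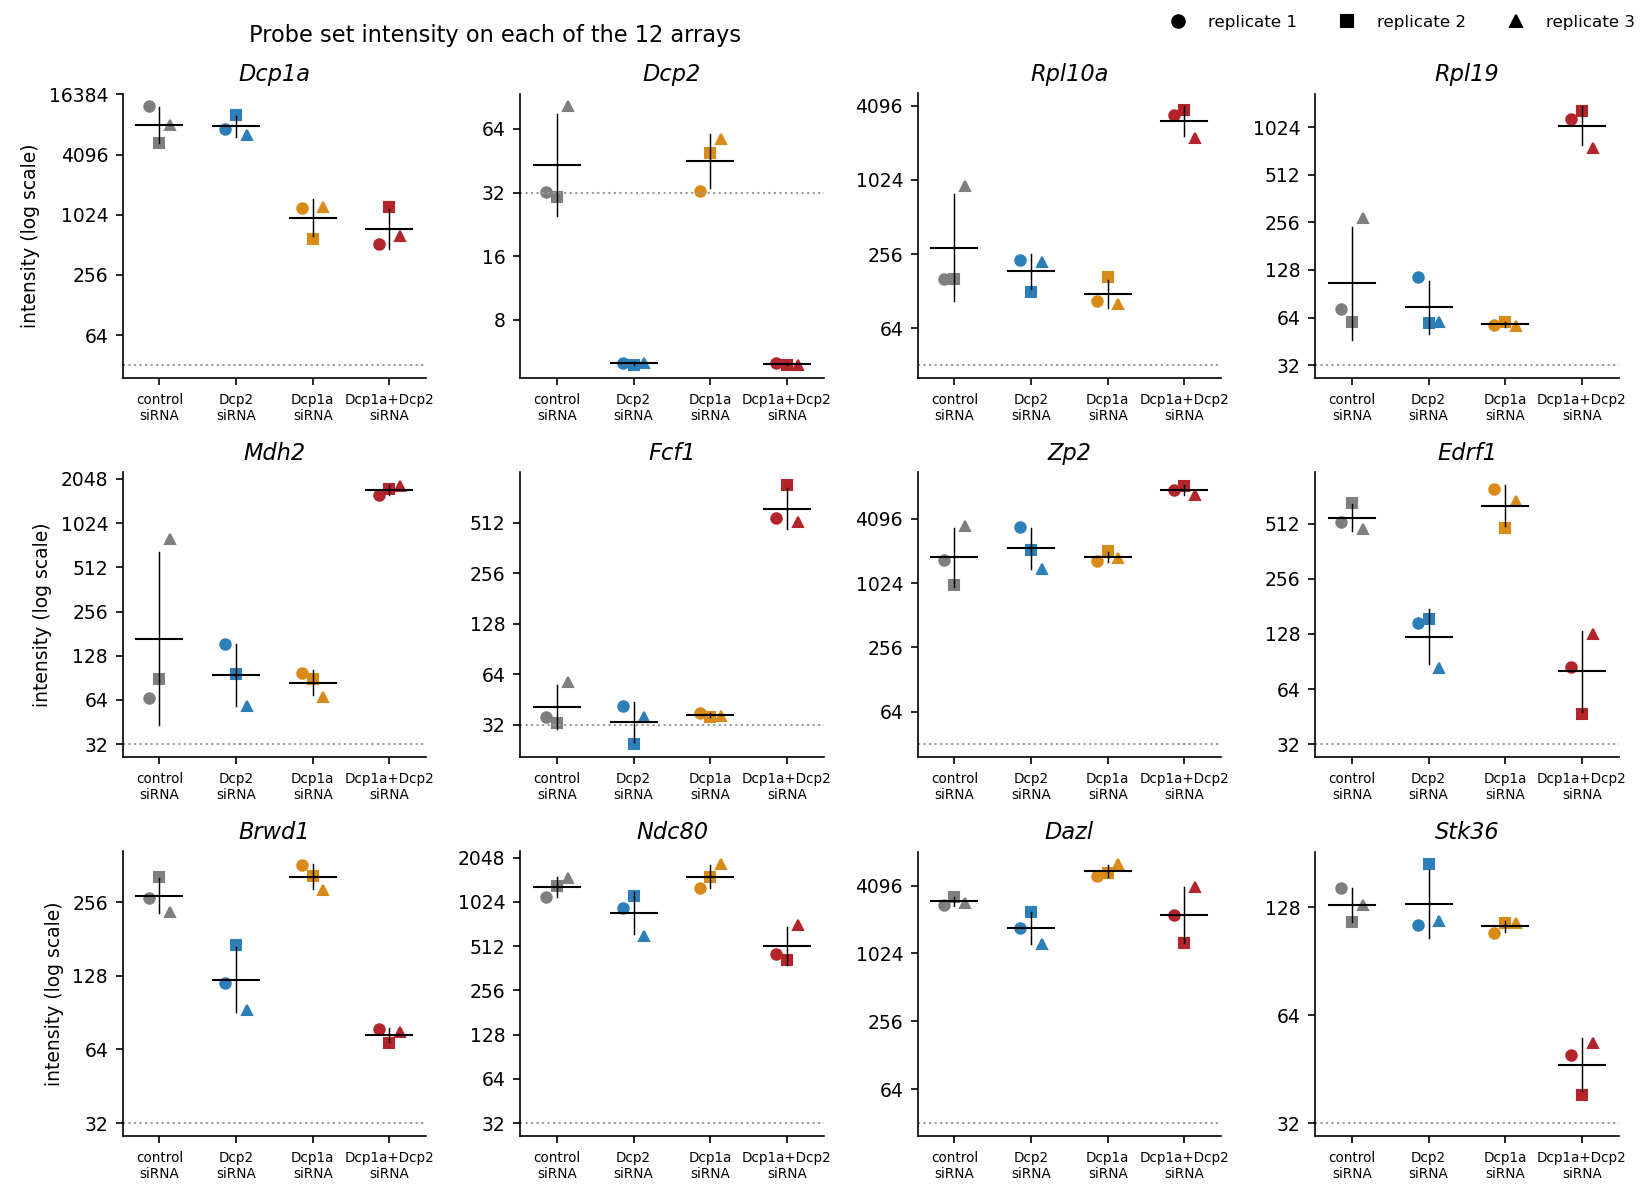
Intensity (log scale) of 12 named probe sets on each of the 12 arrays, by group; points are arrays, shapes replicate numbers, horizontal lines means and vertical lines SDs of the log2 values (n = 3), and the dotted line marks 32 units. Rpl10a, Rpl19, Mdh2, Fcf1 and Zp2 are highest on the 3 double knockdown arrays, with control replicate 3 above the other controls (917 for Rpl10a, 795 for Mdh2), whereas Edrf1 and Brwd1 are low on the Dcp2 siRNA arrays as well.

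The arrays outside the comparison told the rises and falls apart. Dcp2 siRNA alone, against control siRNA, gave 0 higher (0%) and 2 lower probe sets (0.0173%) by limma, those of Dcp2 and of Rlf, a zinc finger gene named here after its values were seen. At an unadjusted p under 0.05 there were 1283 in both directions. Rlf read 57.6, 103 and 79.0 with control siRNA and 21.2, 23.4 and 21.2 with Dcp2 siRNA, and 67.4, 76.9 and 83.6 with Dcp1a siRNA against 22.3, 22.6 and 21 in the double knockdown. Both groups with Dcp2 siRNA were dim, so the falls are bounds: at least 2.43-fold against control siRNA and at least 2.36-fold against Dcp1a siRNA.

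Of the 439 probe sets that fell when Dcp2 siRNA was added to Dcp1a siRNA, 95.2% were also lower with Dcp2 siRNA than with control siRNA, on arrays the calls had not compared. Over all tested probe sets 39.9% were above 0 in that second comparison. The median change of the 439 was -1.12 with Dcp1a siRNA present and -0.56 without it. All 12 of the largest falls were lower with Dcp2 siRNA alone: Edrf1 by -2.16, Kif2a by -1.99 and Brwd1 by -1.14 on the log2 scale. The mean over the 439 probe sets, relative to the Dcp1a siRNA group, was -0.28, -0.20 and -0.22 on the control arrays and -0.89, -0.55 and -1.09 on the Dcp2 siRNA arrays. These 2 groups did not overlap, with p = 0.1 in a two-sided exact permutation test, the smallest that 3 against 3 arrays can give. Dcp2 replicate 2 was the highest Dcp2 siRNA array for 68.1% of the 439, against 50.4% of all tested probe sets.

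Of the 959 probe sets that rose, 48.0% were higher with Dcp2 siRNA than with control siRNA, and their median change there was -0.02, against 1.57 with Dcp1a siRNA present. Only 2 of the 12 largest rises, Eif4h and Lmna, lay above 0 in that comparison, by 0.49 and 0.44 on the log2 scale. Dcp2 siRNA and control arrays differed by -0.08 in the mean over the 959 (exact permutation p = 0.9, two-sided), and by 0.155 without control replicate 3. Across all tested probe sets the effects of Dcp2 siRNA with and without Dcp1a siRNA had a Pearson correlation of 0.40 and a Spearman correlation of 0.55, given as a description, since probe sets of an array are not independent.

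The interaction, the effect of Dcp2 siRNA with Dcp1a siRNA minus its effect without it, tested this difference directly. It was above 0 in 452 probe sets (3.9% of those tested) and below 0 in 4 (0.0345%) at a limma adjusted p under 0.05, and 1342 passed 0.05 before adjustment. By the brightest probe set of each gene these were 3.72% and 0.0572% of 6998 genes. Of the 959 rises 450 passed, and of the 439 falls 4 passed. The interaction contains the same difference that selected these probe sets, so the overlap is partly built in. With values under 32 set to 32, the largest upward departures were those of Rps4x, Rpl10a, Mdh2, Atp6v1d and Supt20, while the fitted one of the dim Ppil3 was larger (6.76). For Rps4x, Dcp2 siRNA gave a fitted log2 change of 3.89 with Dcp1a siRNA and -1.52 without it. The second value leans on control replicate 3: the control arrays read 46.0, 76.7 and 585, and the Dcp2 siRNA arrays 46.2, 45.8 and 41.3. By list, 13 of 39 cytosolic ribosomal protein genes, 19 of 68 of oxidative phosphorylation, 10 of 57 mitochondrial ribosomal protein genes and 3 of 23 import genes passed upward, and 0 passed downward.

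Named genes with a downward interaction were Stk36, Hira and Syne1. Stk36, a kinase that acts in cilia, read 109, 116 and 116 against 49.5, 38.4 and 53.4 on the Dcp1a background, and 145, 117 and 130.2 against 114, 169 and 117 without Dcp1a siRNA. It fell by 1.28 on the log2 scale in the first and differed by 0.01 in the second. Hira read 107, 107 and 102 against 63.6, 60.5 and 56.5, with controls of 75.4, 76.6 and 78.4, so that its Dcp1a siRNA arrays lay above and its double knockdown arrays below the controls. Syne1, a nuclear envelope spectrin repeat protein, was at least 1.58-fold lower in the double knockdown, since all of its double knockdown arrays were dim (20.1 to 20.8), as were its controls (19.3 to 20.8).

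Control level and gene length differed between rises and falls. On the control arrays the called rises had a median log2 level of 6.64 and the called falls 7.90, against 7.96 for all tested probe sets. Of the rises 22.5% were at or under log2 5 in control eggs, against 3.42% of the falls and 5.29% of all. The filter partly fixes these control levels, because a probe set could pass it on the double knockdown arrays alone: 205 of the 959 rises and 0 of the 439 falls passed only with those arrays. Among probe sets that passed on the other 9 arrays, the share at or under log2 5 in control eggs was 2.92% for rises, 3.42% for falls and 2.55% for all, and the medians were 7.24, 7.90 and 8.08. Genes that rose had a median genomic length of 16 kb and genes that fell one of 38.3 kb, against 28.6 kb for all tested genes in the gene table of RefSeq for GRCm38.p6. Without the ribosomal protein genes, whose median was 3.9 kb for those that rose, the risers' median was 17.4 kb.

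The kind of probe set moved with the direction of change. Probe sets ending in _x, with partly unspecific probes, made up 20.9% of the rises, 0.911% of the falls and 8.72% of all tested, and plain probe sets 45.2%, 77.9% and 66.6%. Where a gene that rose had further tested probe sets, 301 of 467 lay above 0 (64.5%, against 41.6% of all) and 121 were called higher too. For genes that fell, 301 of 407 lay below 0 (74.0%, against 58.4%) and 25 were called lower too. Among plain probe sets alone, 46 of 109 further ones of risers lay above 0 (42.2%, against 36.4%) and 145 of 201 of fallers below 0 (72.1%, against 63.5%). Of those of risers only 3 were called higher (2.75%) and 9 were called lower, with a median log2 change of -0.13. Of those of fallers 13 were called lower (6.47%) and 9 higher, with a median of -0.39. By the brightest plain probe set of each gene, 5.85% of all genes rose and 3.96% fell. Of the 27 named genes that rose and had further tested probe sets, 4 had one of opposite sign and 20 had another called higher. Of the 15 such named genes that fell, 7 had one of opposite sign and 4 another called lower. A set of 12 genes had probe sets called in both directions, among them Edrf1, Ncl and Anapc7 named above. The part of the probe set kind in the rises was not tested.

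Markers of other ovarian cells were at or near the floor. Of 28 cumulus and granulosa cell markers on the array 25 were at or under 32 units on every array of both groups, among them Amh, Fshr, Foxl2, Has2 and Ptgs2. The summed level was 2552 to 2634 on the Dcp1a siRNA arrays and 1459 to 1722 in the double knockdown, and nearly all of it came from Nr5a2, a nuclear receptor gene, which was 1.75-fold lower (2418, 2384 and 2324 against 1408, 1474 and 1203; limma adjusted p = 0.0252). Of 19 markers of other ovarian, stromal and blood cells 17 were at or under 32 units on every array, with sums of 509 to 557 and 556 to 813. The one with the smallest p, Kdr, was not called.

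Array quality differed in part between the groups. Correlations between arrays over the tested probe sets were 0.991 to 0.992 within the Dcp1a siRNA group and 0.958 to 0.989 within the double knockdown. The ratio of 3′ to 5′ signal, which rises as RNA degrades or is copied incompletely, was 134 to 165 for β-actin with Dcp1a siRNA and 178 to 196 in the double knockdown, without overlap (exact permutation p = 0.1, two-sided). The share of values at or under 5 intensity units, next to the lowest value of the table, was 56.4% to 56.6% with Dcp1a siRNA. In the double knockdown it was 55.3% to 56.3%, also without overlap (exact permutation p = 0.1, two-sided), and its part in the rises was not tested. For Gapdh the 3′ to 5′ ratio was 159.6 to 219.9 against 153 to 168, with overlap (exact permutation p = 0.6). The number of called falls depended on single arrays: it was 96 without double knockdown replicate 2, 1291 without double knockdown replicate 3, 142 without double knockdown replicate 1, 1096 without Dcp2 replicate 2 and 125 to 157 without any 1 of the Dcp1a siRNA arrays. The number of called rises was 602 without Dcp1a replicate 3, 606 without double knockdown replicate 2 and 640 to 1083 without any other array.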

How the data were processed

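Per the labels' protocols, each sample was RNA of 30 eggs, amplified for the array with the small-sample labelling assay of Affymetrix. The authors made the deposited intensity values with GCRMA, per the submitters' processing notes, a method that subtracts a sequence-dependent background, equalizes the arrays and combines the probes of a set. Its version was not given in the sources used here. The table held linear intensities from 4.9 for 45101 probe sets on 12 arrays, and 55.6% of values were at or under 5 units. Precision is limited by the number of arrays.

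All tests used log2 intensities. Of 45037 probe sets without controls, 11593 with log2 above 5 in at least 3 of the 12 arrays were tested with limma 3.58.1, run in R 4.3.3 (functions lmFit and eBayes, group means over all 12 arrays, 8 residual and 2.97 prior degrees of freedom, two-sided, Benjamini-Hochberg over all tested, threshold 0.05). Of these, 10699 had 1 gene symbol in the platform annotation, 334 several and 560 none; genes were named from the first kind only, and 34741 of 34945 such probe sets on the array matched the RefSeq gene table of GRCm38.p6. A fold is a bound ("at least") where the dimmer group's mean or median was at or under log2 5; it allows for that floor and not for replicate spread.

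The comparison, the 30 gene lists and the rules were chosen with earlier results of these data known. Named were Dcp1a and Dcp2, the 12 largest rises and 12 largest falls among called probe sets whose groups did not overlap, up to 3 called members of each list (or the one with the smallest p), and up to 5 genes each way from the interaction, all ranked with values under 32 set to 32 and limited to single, non-clone symbols. Each list gene was represented by its brightest tested probe set. The script was tested on simulated data. Gene length replaced protein length, which was not analysed here. The alternatives covered scaling, the floor, the filter, the arrays fitted, the variance model, array weights, the replicate number as a block and leaving out each array. Single values were compared with exact permutation tests (scipy 1.17.1).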

Additional observations from a re-analysis of the deposited data

Results flagged for a closer look

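The effect of Dcp2 siRNA differed with and without Dcp1a siRNA in 452 probe sets upward and 4 downward by the interaction test of limma at an adjusted p under 0.05, and each gene below passed that test by its named probe set. Values are log2 differences, the effect in eggs with Dcp1a siRNA minus the effect in eggs without it, from 3 arrays in each of 4 groups. Fitted values of probe sets that were dim in a group, such as Ppil3, Ndufs8 and Mrpl41, depend on the floor of the table. Control replicate 3, which was the highest control array for 69% of called rises, is 1 of the 3 arrays behind every control mean used here. Without it 403 differences were upward and 5 downward, and Hspa8, Aldoa, H2aj, Vps35l, Gtsf1, Stk36 and Hira no longer passed.

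Among ribosomal protein genes the difference was 5.41 for Rps4x, 5.31 for Rpl10a and 4.68 for Rpl19. Among ribosome biogenesis genes it was 4.38 for Fcf1 and 3.06 for Ddx18. Among initiation factors it was 2.76 for Eif2b4 and 1.96 for Eif4e2. Mitochondrial genes gave 5.18 for Mdh2, 4.82 for Ndufs8, 4.07 for Ndufs7, 4.04 for Mrpl41, 3.65 for Ndufb7, 3.03 for Mrpl22 and 2.28 for Mrpl52. Import genes gave 3.13 for Timm17a and 1.57 for Gfer. Genes of the proteasome, ubiquitin transfer and chaperones gave 2.81 for Ube2a, 2.63 for Psmb4, 2.11 for Cct2, 1.72 for Psmd6 and 1.56 for Hspa8.

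Genes of membrane traffic gave 5.81 for Atp6v1d, 3.35 for Stx5a, 2.47 for Snx17 and 2.13 for Vps35l. Genes of the nucleus gave 6.76 for Ppil3, 5.12 for Supt20, 3.40 for Lmna, 1.83 for H2aj and 1.51 for Zfp593. Genes of RNA decay and small RNAs gave 3.11 for Dis3l and 2.54 for Gtsf1. The remaining upward differences were 4.71 for Lrrfip2, 4.28 for Tuba4a, 3.81 for Arg2, 2.16 for Ddit3, 1.73 for Pdk1, 1.44 for Aldoa and 1.28 for Anapc2. The downward ones were -0.91 for Hira, -1.29 for Stk36 and -1.38 for Syne1.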

How the results depend on the processing

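None of the 86 named calls and of the 42 named interaction calls changed sign under an alternative that gave a value; signs of the other called probe sets were not compared. Rises numbered 602 to 1083 and falls 96 to 1291 when 1 array was left out, upward interactions 251 to 546 and downward ones 1 to 80. Rises in the lists then numbered 14 to 24 for cytosolic ribosomal proteins, 20 to 30 for oxidative phosphorylation, 10 to 18 for mitochondrial ribosomal proteins and 5 to 9 for import. Without a filter on dim probe sets there were 719 rises, 123 falls and 155 upward interactions, with 10, 17 and 10 rises in the first 3 of these lists. With log2 above 7 there were 613 rises, 281 falls, 270 upward and 1 downward interaction, and 16 rises in oxidative phosphorylation. Downward interactions numbered 7 after quantile normalization and 8 after cyclic loess. With values under 32 set to 32 the Dcp2 change was -0.49 and lost its call. A fit of the 6 compared arrays alone gave 1488 rises and 1291 falls. Leaving out control replicate 1 and Dcp2 replicate 2 together, chosen after seeing the data, gave 1391 falls and 116 downward interactions. Array weights gave 3189 rises, 4857 falls, 1052 upward and 333 downward interactions, a called Dcp1a change of -0.80, and 34, 47, 31 and 12 rises in the 4 lists. That estimate stopped before it converged and put a weight of 56.1 on 1 double knockdown array, so these counts have little standing.

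The replicate number as a block gave 800 rises, 291 falls, 330 upward and 1 downward interaction, and 11 of 86 named calls were lost. The numbers were not taken to pair the samples: deviations of same-numbered arrays correlated from -0.685 to 0.394, and 3 of 12 arrays correlated best with their own number. Of the 86 named calls, 41 were lost with no filter, 21 to 24 without a Dcp1a siRNA array, and 22, 25 and 3 without double knockdown replicates 1, 2 and 3. With the pyrimidine tract allowed within 5 bases of the start, shares moved to 23.8% of genes called higher (23.3% without ribosomal proteins, from 2.24%), 23.9% of those called lower, 23.5% of all tested, 42.4% of ribosomal protein genes and 18.3% of all windows. The medians of 10 lists changed sign under another scaling: exosome, translation control, small RNA, ribosome biogenesis, proteasome, chaperones, growth-phase, meiotic, kinesin and zygotic activation genes. The mean difference between Dcp2 siRNA and control arrays over the called rises, -0.08, was 0.09 after median centring, and -0.224 to 0.155 without 1 array. With the filter applied to the 9 arrays outside the double knockdown, chosen after seeing the data, median control levels were 7.24 for rises, 7.90 for falls and 8.08 for all tested.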

Other observations

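Probe sets of 12 genes were called in opposite directions, a group chosen after its values were seen. Dnmt3a, the de novo DNA methyltransferase that sets maternal imprints in growing oocytes, had 5 tested probe sets. A single one rose, by 2.66 on the log2 scale (limma adjusted p = 0.000387), another was lower by -0.83 (limma adjusted p = 0.0284), and the other three differed by -0.65, -0.28 and -0.83 without passing. Psmf1, an inhibitor of the proteasome, had 4, of which 1 was higher by 2.94 and another lower by -1.32. Os9, a lectin of endoplasmic reticulum quality control, had 1 higher by 2.03 and another lower by -1.0. Wdr33, a subunit of the polyadenylation complex, had 1 higher by 1.15 and others lower by -1.20 and -1.52. Heatr5b had values of 1.40 and -1.52, and Rnf170, a ubiquitin ligase of the endoplasmic reticulum, 0.75 and -1.46. Gtpbp4, a nucleolar GTPase of ribosome assembly, had 1.12 and -1.33. Usp46, a deubiquitinase, had 0.95 and -0.83, and Dynll2, a dynein light chain, 1.41 and -0.53. Which transcript each probe set measures was not analysed here.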
